A study of Rattus norvegicus with 2 samples.

Results

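Oxytocin and vasopressin, the hormones of the posterior pituitary, were followed with 2 of their receptors in the hypothalamus of female rats before and at puberty. The genes were chosen by name as Oxt, Avp, Oxtr and Avpr1a, and each of the 4 matched 1 gene and 1 transcript among the 22777 mRNA genes of the series. RNA came from the hypothalamus of female Sprague Dawley rats, prepubertal at postnatal day 25 or pubertal at postnatal day 35, the latter in their first estrus. The study took 3 rats per stage but deposited a single column for each, which is treated as 1 library, so the spread between rats is not known and no test was made. Ribosomal RNA was removed before strand-specific libraries were prepared and sequenced as read pairs. Levels are given in FPKM (fragment number divided by transcript length and by the library's mapped fragments), a scale per length on which genes can be compared within a library. In whole hypothalamus, fewer cells of a type and less RNA per cell cannot be told apart.

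Oxytocin and vasopressin are peptides of nearly the same sequence, made as precursors together with their carrier proteins, the neurophysins. Large neurons of the paraventricular and supraoptic nuclei make them and send them to the posterior pituitary, where oxytocin is released for labour and milk ejection and vasopressin for water retention. Vasopressin is also made by neurons of the suprachiasmatic nucleus, the circadian clock, and both peptides act inside the brain on receptors that couple to Gq, phospholipase C and calcium. The oxytocin gene is known for a cluster of nuclear receptor motifs ahead of its start, and the vasopressin gene for an E-box used by the clock.

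Oxt and Avp are neighbours on chromosome 3 with 0 protein-coding genes between them, and they point towards each other. The 250 bases ahead of each start are shown because the levels of these neighbours differed in how they compared between the stages. They are RefSeq sequences of build GRCr8, which is not the build of the authors' alignment. Capitals mark each match, on either strand, to TGACC (the core of a nuclear receptor motif), CACGTG (an E-box) or TGACG (the core of a cAMP response element), and none of these matches overlap. The Oxt sequence lies at chr3:138235504-138235753 on the plus strand and the Avp sequence at chr3:138248523-138248772 on the minus strand.
Oxt: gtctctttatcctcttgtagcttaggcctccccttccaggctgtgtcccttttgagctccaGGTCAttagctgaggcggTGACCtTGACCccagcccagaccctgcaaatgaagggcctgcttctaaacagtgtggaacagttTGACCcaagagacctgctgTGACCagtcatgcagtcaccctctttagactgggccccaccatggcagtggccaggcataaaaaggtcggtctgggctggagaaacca
Avp: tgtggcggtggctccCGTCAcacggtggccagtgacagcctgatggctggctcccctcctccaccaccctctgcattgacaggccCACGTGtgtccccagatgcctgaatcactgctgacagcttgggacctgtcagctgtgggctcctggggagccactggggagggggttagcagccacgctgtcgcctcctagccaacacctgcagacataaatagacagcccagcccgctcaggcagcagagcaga
The Oxt sequence held 5 matches to TGACC, starting 189, 171, 165, 107 and 88 bases ahead of the gene, the first of them on the opposite strand, and the Avp sequence held 0. Among 33469 rat promoter sequences of the same length, 35.4% held 1 match or more and 0.0508%, which is 17 promoters, held at least 5. The Avp sequence held 1 match to CACGTG, 165 bases ahead of the gene, a motif in 5.59% of the promoters, and 1 match to TGACG on the opposite strand, a motif in 18.2%, while the Oxt sequence held 0 of either. The sequence ahead of Oxtr (chr4:147170500-147170749, minus strand) held 2 matches to TGACC, where 8.37% of promoters held at least 2, and 1 match to TGACG. That ahead of Avpr1a (chr7:59999493-59999742, plus strand) held 0 matches to TGACC and 1 to TGACG. A match describes these letters and was not tested as a binding site.

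Values of 1 fragment could be read from the low FPKM, because nearly all of them were whole multiples of a common step once corrected for transcript length. The step corresponds to 20800000 fragments for the prepubertal library and 16200000 for the pubertal one. Intervals below are exact 95% intervals of the fragment number and cover counting error only. They hold no spread between rats. Over the 14029 genes with at least 1 FPKM in either library, the median log2 ratio of pubertal over prepubertal (FPKM + 1) was -0.01, with 48.9% of genes higher at puberty, with its 5th and 95th percentiles at -0.47 and 0.40. Libraries made equal for Actb, the reference gene of the study's quantitative PCR, would put the median of all genes above 0 at 0.30. Each direction below is that of the deposited scaling. Equal Actb raises every pubertal level by a factor of 1.32. It turns any lower gene whose prepubertal level is less than 1.32 times its pubertal level. Most of the lower genes in the peptide processing, Gq and MAP kinase lists below, and some thalamic markers, would turn. Others, such as Cpe and Itpr2, would not.

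Oxytocin mRNA was more abundant in the pubertal library, while the counting intervals of vasopressin mRNA and of both receptor mRNAs overlapped between the libraries. Oxt (ENSRNOG00000021225), the oxytocin precursor, was listed at 411 FPKM before puberty and 686 FPKM at puberty. These levels rest on about 2367 and 3145 fragments and have counting intervals of 395 to 428 FPKM and 662 to 710 FPKM. The intervals of the libraries do not overlap, and the pubertal level was 1.67 times the prepubertal level (1.58 to 1.76), a log2 ratio of 0.74. Of the 14029 genes, 146 had a higher ratio, which is 1.04% of them. Oxt was high in both libraries, at rank 265 of all mRNA genes before puberty and rank 159 at puberty. Among the 422 other genes within 2-fold of its prepubertal level, 2 had a higher ratio, and the median of these genes was 0.08.

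Avp (ENSRNOG00000021229), the vasopressin precursor, was listed at 254 FPKM before puberty and 239.8 FPKM at puberty. About 1729 and 1298 fragments stand behind these levels, with intervals of 242 to 266 FPKM and 227 to 253 FPKM. The intervals overlap, and the pubertal level was 0.945 times the prepubertal level (0.879 to 1.02), a log2 ratio of -0.08. Avp kept a high rank in both libraries, 451 before puberty and 483 at puberty. The direction of this small difference depended on the scaling of the libraries, as the log2 ratio was 0.32 when the libraries were made equal for Actb.

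The hormones can be compared within a library, where scaling of the library plays no part. Oxt was 1.62 times Avp in the prepubertal library and 2.86 times Avp in the pubertal library. The ratio of the 2 mRNAs was therefore 1.76 times as high at puberty, with a counting interval of 1.61 to 1.93. As the exons for the central part of both neurophysins are nearly identical, fragments from them can have been shared between the genes in the authors' quantification, and each level is uncertain to that extent.

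**Figure D1:**
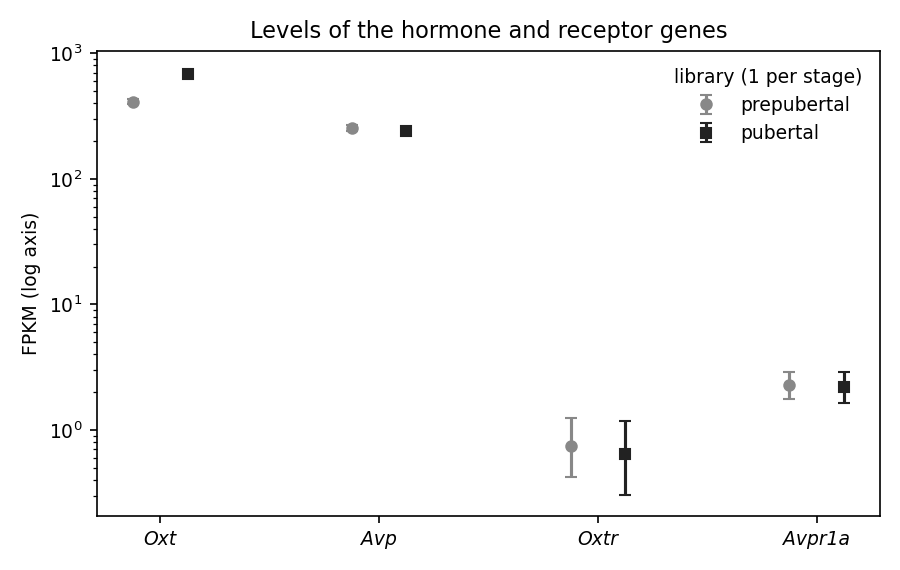
FPKM (vertical log axis) of Oxt, Avp, Oxtr and Avpr1a in the prepubertal (circles) and pubertal (squares) library, 1 library per stage. Bars are exact 95% counting intervals without any spread between rats. The Oxt interval at puberty (662 to 710 FPKM) lies above that before puberty (395 to 428 FPKM), and the intervals of the other 3 genes overlap between the stages.

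The receptor mRNAs were low in the whole hypothalamus. Oxtr (ENSRNOG00000005806), the oxytocin receptor, was listed at 0.751 FPKM before puberty and 0.638 FPKM at puberty. These are 15 and 10 fragments, and the intervals of 0.421 to 1.24 FPKM and 0.306 to 1.17 FPKM overlap over most of their width. The pubertal level was 0.849 times the prepubertal level with an interval of 0.341 to 2.02, so differences inside that interval were not detectable at this depth. Oxtr did not reach 1 FPKM in either library, and 18.5% of the genes above 0 lay below it before puberty and 17.0% at puberty.

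Avpr1a (ENSRNOG00000004400), the V1a receptor of vasopressin in brain, liver and vessels, was listed at 2.28 and 2.20 FPKM. It rests on 70 fragments before puberty and 53 at puberty, with overlapping intervals of 1.78 to 2.88 FPKM and 1.65 to 2.88 FPKM. The pubertal level was 0.966 times the prepubertal level (0.663 to 1.40). The log2 ratios of Oxtr and Avpr1a were -0.10 and -0.03, and both turned positive, 0.08 and 0.26, when the libraries were made equal for Actb. Within a library Avpr1a was 3.04 times Oxtr before puberty and 3.45 times Oxtr at puberty. The latter ratio was 1.14 times the former, with a counting interval of 0.437 to 3.07, so no difference between these ratios was resolved.

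The other receptors of the family were close to absent. Avpr2, the V2 receptor through which the kidney retains water, was listed at 0.336 FPKM before puberty and 0.143 FPKM at puberty, 6 fragments and 2. Avpr1b, the receptor through which vasopressin releases ACTH in the anterior pituitary, was listed at 0.0191 and 0.0244 FPKM, which is 0.5 fragments in each library. In each library the 4 receptors ranked Avpr1a, Oxtr, Avpr2 and Avpr1b from high to low, and the order of Oxtr above Avpr2 rests on 15 against 6 fragments and 10 against 2.

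By a size rule of 2-fold in FPKM + 1, 0 of the 4 genes differed between the libraries, against 0.681% of all mRNA genes (0.307% higher and 0.373% lower at puberty). Of these 22777 genes, 18052 were above 0 in either library, and the rest could not pass. Oxtr, at 0.751 FPKM before puberty, could not be called lower by the 2-fold rule even if absent at puberty. With the libraries made equal for Actb, Oxt passed this rule with a log2 ratio of 1.14, as did 1.21% of all mRNA genes (0.975% higher and 0.233% lower at puberty). At 1.5-fold, a rule added after the values were seen, Oxt was the 1 gene of the 4 past it. This rule took in 3.29% of all mRNA genes, 1.43% higher at puberty, as Oxt was, and 1.86% lower.

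**Figure D2:**
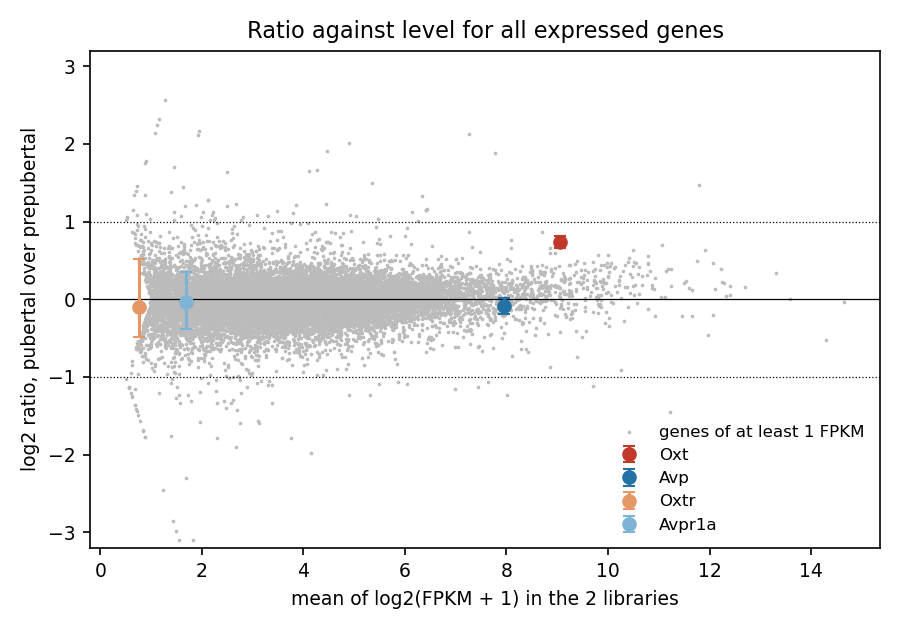
Log2 ratio of pubertal over prepubertal FPKM + 1 (vertical) against the mean log2(FPKM + 1) of the 2 libraries (horizontal) for genes with at least 1 FPKM (grey; 14 genes lie outside the axis) and the 4 hormone and receptor genes with counting intervals. Dotted lines mark 2-fold. Oxt (0.74) sits above the band of genes of its level, and Avp (-0.08) inside it.

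The log2 ratio varied with transcript length, and the transcripts of Oxt and Avp are 534 and 585 nt long. The median log2 ratio was -0.05 for the 316 genes of 200 to under 400 nt, of which 10.1% had at least the ratio of Oxt. It was 0.07 for the 527 genes of 400 to under 600 nt, the class of Oxt, of which 4.93% had at least its ratio. It was 0.09 for the 1311 genes of 600 to under 1000 nt and 0.04 for the 4786 genes of 1000 to under 2000 nt. For the 5135 genes of 2000 to under 4000 nt it was -0.03, and for the 1938 genes of at least 4000 nt -0.12. Among 578 genes within 100 nt of the length of Oxt the median was 0.09, and 27 of them (4.67%) had a higher ratio than Oxt. Less that median, the log2 ratio of Oxt was 0.65, and that of Avp, by its own 579 genes of like length, was -0.18. Oxt and Avp thus differed in ratio at like length.

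**Figure D3:**
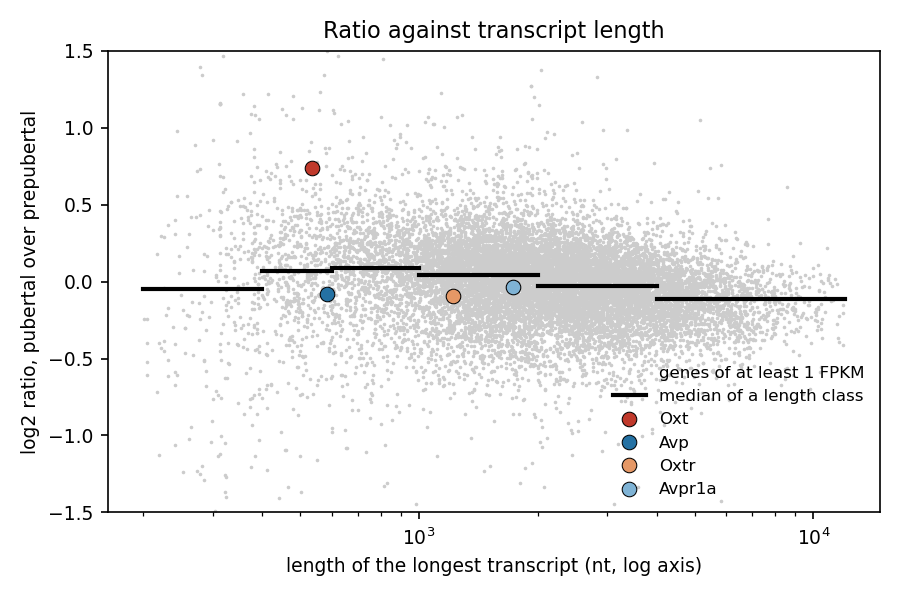
Log2 ratio of pubertal over prepubertal FPKM + 1 (vertical) against the length of the longest transcript in nt (horizontal log axis) for genes with at least 1 FPKM, with the median of each of 6 length classes (black lines) and the 4 hormone and receptor genes. Oxt (534 nt, 0.74) and Avp (585 nt, -0.08) have like length and lie on either side of the class median of 0.07. Ratios beyond 1.5 in size and transcripts under 200 or over 12000 nt are not drawn.

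Oxytocin was among the most abundant of the listed peptide precursors in both libraries. The list holds 28 hypothalamic precursors including Oxt and Avp, but not Cck, Gal and Pdyn, which are given with the co-transmitters. Within it, Pmch, the precursor of melanin-concentrating hormone, had rank 1 in both libraries with 1675 and 2723 FPKM, and Oxt had rank 2 in both. Avp had rank 3 before puberty and rank 4 at puberty, where Hcrt, the orexin precursor, stood above it (196 and 249 FPKM). Cck, outside the list, lay slightly above Avp in both libraries (257 and 242 FPKM). Cartpt, the precursor of the satiety peptide CART, followed in both libraries with 119 and 152 FPKM. The precursors as a group were mostly higher at puberty. Of the 26 precursors other than Oxt and Avp, 25 were above 0 and 21 of these were higher and 4 lower, with a median log2 ratio of 0.20 against -0.01 over all genes of at least 1 FPKM. Many of these precursors are shorter than 1000 nt, and of all genes of 400 to under 600 nt and of 600 to under 1000 nt 59.2% and 64.2% were higher. None of them reached 2-fold in FPKM + 1, and 1, Kiss1, had a higher log2 ratio than Oxt (0.96). In FPKM itself Kiss1 (1.46 and 3.79 FPKM) and 2 low precursors, Rln3 (1.01 and 0.367 FPKM) and Qrfp (0.807 FPKM before puberty and listed at 0 at puberty), did pass 2-fold. These 3 were named after their values were seen. By ratio, Oxt had rank 2 of the 28 and Avp rank 24. The share of Oxt in the summed FPKM of the 28 precursors went from 12.7% to 14.4% and that of Avp from 7.82% to 5.05%. Pmch alone held 51.6% of that sum before puberty and 57.35% at puberty, so these shares depend on Pmch as well.

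Markers of hypothalamic nuclei were present in both libraries, as were markers of other brain regions. Of the markers of the paraventricular and supraoptic nuclei, 5 of 7 entries were higher at puberty, with a median of 0.13 and a summed level of 170 against 177 FPKM. The 2 entries of the widely expressed Nr3c1 hold much of that sum, at 47.97 and 44.18 FPKM and at 53.7 and 53.8 FPKM. Among the suprachiasmatic markers 5 of 6 above 0 were higher (median 0.15, summed level 46.4 against 52.1 FPKM) with Prok2 listed at 0 in both libraries. All 7 arcuate and ventromedial markers were higher, with a median of 0.29 and a summed level of 98.2 against 136 FPKM, and both lateral hypothalamic markers were higher (1871 against 2971 FPKM). Pomc, Agrp, Npy, Kiss1, Hcrt and Pmch of these lists were already counted among the precursors, as were Crh, Trh, Vip, Grp and Prok2 above. The arcuate and ventromedial markers outside the precursors, Tbx3, Fezf1 and Nr5a1, had log2 ratios of 0.08, 0.10 and 0.18. Thalamic markers were lower in 6 of 6 cases with a median of -0.37 (202 against 158 FPKM), telencephalic markers in 3 of 5 (median -0.26, 7.90 against 4.31 FPKM), and neuronal markers in 4 of 4 (median -0.18, 1440 against 1342 FPKM). The 5 red blood cell genes were all higher (median 0.63, 6837 against 13080 FPKM). Of 10 pituitary markers 7 were higher and 3 lower (median 0.18, 37.0 against 50.6 FPKM in sum). Among them Prl was listed at 0 before puberty and at 3.40 FPKM at puberty and Gh1 at 0.872 and 4.09 FPKM, the 2 with the highest ratios. The 3 that were lower were Pou1f1 at 0.155 and 0.0565 FPKM, Lhb at 1.44 and 1.29 FPKM and Tbx19 at 0.653 and 0.592 FPKM. Choroid plexus (37.6 against 31.2 FPKM, median -0.11), astrocyte (1228 against 1072 FPKM, median -0.12), oligodendrocyte (11830 against 12830 FPKM, median -0.06) and endothelial markers (105 against 97.6 FPKM, median -0.13) went in both directions. All 4 microglial markers were higher (median 0.17, 111 against 139 FPKM). The part of tissue composition in the level of Oxt was not tested.

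Sim1, Otp, Arnt2 and Pou3f2 are the transcription factors that specify the magnocellular neurons, and 2 were higher and 2 lower at puberty, with a median log2 ratio of 0.06. Sim1 was listed at 2.01 and 2.57 FPKM, Pou3f2 at 5.83 and 7.04 FPKM, Otp at 1.32 and 0.870 FPKM and Arnt2 at 25.6 and 23.7 FPKM. Of 6 regulators linked to the transcription or stability of Avp mRNA in these neurons, 2 were higher and 4 lower (median -0.06). Caprin2, an RNA-binding protein that lengthens the poly(A) tail of Avp mRNA, was listed at 5.44 and 6.98 FPKM, and Creb3l1, a transcription factor of the Avp gene, at 0.323 and 0.155 FPKM, or 16 and 6 fragments. Rasd1, a small GTP-binding protein induced by osmotic stress in these neurons, was listed at 39.5 and 30.8 FPKM. The log2 ratios of Creb1, Giot1 and Fosl1 lay between -0.08 and 0.02.

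Of the genes that cut, amidate or degrade the peptides, 1 of 7 entries was higher and 6 lower at puberty, with a median of -0.20, and none reached 1.5-fold. Cpe, the carboxypeptidase that trims the peptides after cleavage, was listed at 854 and 609.8 FPKM (log2 ratio -0.49), and Pcsk2, a convertase, at 129 and 105 FPKM (-0.29). Pam, which amidates the C terminus of both hormones, was listed at 128 and 126 FPKM. Scg5, the chaperone of Pcsk2, was the 1 entry that was higher, at 507 and 562 FPKM. Lnpep, the aminopeptidase that degrades oxytocin, has 2 entries in the table, at 19.1 and 16.7 FPKM and at 23.2 and 19.8 FPKM. Pcsk5, a further convertase, was listed at 8.14 and 6.93 FPKM.

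Among 8 genes of co-transmitters and release in these neurons, 5 were higher and 3 lower at puberty (median 0.05). Gal, the precursor of galanin, was listed at 39.6 and 56.5 FPKM, a log2 ratio of 0.50. Pdyn, the dynorphin precursor that vasopressin neurons also make, was listed at 21.5 and 23.3 FPKM, and Cck, the cholecystokinin precursor of oxytocin neurons, at 257 and 242 FPKM. Cd38, the enzyme needed for oxytocin release, was listed at 17.7 and 20.2 FPKM. Nos1, Kcnmb4 and Slc17a6 had log2 ratios between -0.13 and 0.05. Of the osmosensing and water channel genes, 3 were higher and 3 lower (median 0.01). Nfat5, the transcription factor of the response to hypertonicity, was listed at 7.35 and 5.03 FPKM (log2 ratio -0.47), and the astrocyte water channel Aqp4 at 224 and 188 FPKM (-0.25). The osmosensitive cation channels Trpv1 and Trpv4, the sodium-sensing channel Scn7a and the glucose transporter Slc2a4 had log2 ratios between -0.03 and 0.10. Trpv4 (0.147 and 0.125 FPKM), Slc2a4 (0.758 and 0.834 FPKM) and Trpv1 (0.948 and 1.09 FPKM) were low. At such levels the pseudocount of 1 holds the ratio near 0.

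Downstream of the receptors, genes of Gq and calcium signalling were mostly somewhat lower at puberty, at 17 of 21 entries above 0, with 4 higher and a median of -0.12. The longest transcripts of this list, such as Itpr2 with 10458 nt, lie in the length class with the lowest median. Among the larger differences in size were those of Itpr2, a calcium release channel, listed at 6.19 and 3.89 FPKM (log2 ratio -0.56), and Cacna1c, an L-type calcium channel, at 11.2 and 8.52 FPKM (-0.36). The entry with the highest FPKM of the list was 1 of 2 of Calm2, a calmodulin gene, at 1118 and 1266 FPKM, and near-identical copies of calmodulin genes can share fragments. Calm3 was listed at 0 in both libraries. Gnaq, the G protein that both receptors use, was listed at 93.2 and 92.6 FPKM. In the MAP kinase and prostaglandin branch 2 of 12 genes were higher and 10 lower (median -0.04), among them Mef2c, a transcription factor, at 23.6 and 17.7 FPKM (-0.39). Map2k1, a MAP kinase kinase, had the highest FPKM of this branch, 129 and 137. Of the genes that desensitise such receptors 4 of 7 were higher and 3 lower (median 0.01), with Rgs4 at 180 and 151 FPKM and Grk5 at 12.7 and 10.2 FPKM (log2 ratios -0.24 and -0.29), Rgs2 at 54.8 and 63.2 FPKM (0.20) and Arrb1 at 69.5 and 69.9 FPKM.

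Estrogen receptors and related nuclear receptors were detected in both libraries. The estrogen, thyroid hormone and orphan receptors among them can bind motifs of the TGACC kind, while Pgr and Nr3c1, the glucocorticoid receptor, bind a different motif. Of the 10 entries, 6 were higher and 4 lower at puberty, with a median of 0.05, and none reached 1.5-fold in FPKM + 1. Esr2, the estrogen receptor beta that oxytocin neurons of the rat express, was listed at 0.925 and 1.56 FPKM, a log2 ratio of 0.41. In FPKM itself the pubertal level of Esr2 was 1.68 times the prepubertal level, past 1.5-fold, at a low level in both libraries. Esr1, the estrogen receptor alpha, was listed at 1.86 and 2.21 FPKM (0.17), and Pgr, the progesterone receptor that estrogen induces, at 4.51 and 5.64 FPKM (0.27). Thra, a thyroid hormone receptor, was listed at 101 and 99.3 FPKM, and Nr2f1, an orphan receptor, at 13.9 FPKM in each library. Nr2f2, Esrra, Thrb and both entries of Nr3c1 had log2 ratios between -0.12 and 0.18.

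The genes that flank the pair on the chromosome had smaller log2 ratios than Oxt, between -0.26 and 0.19, with 3 of 5 higher at puberty and a median of 0.01. On the Oxt side Mrps26, a mitochondrial ribosomal protein, was listed at 56.0 and 64.1 FPKM (log2 ratio 0.19) and Ptpra, a receptor tyrosine phosphatase, at 94.4 and 95.1 FPKM (0.01). On the Avp side Ubox5 was listed at 3.67 and 2.90 FPKM (-0.26), Lzts3 at 28.8 and 26.4 FPKM (-0.12) and Ddrgk1 at 57.9 and 62.5 FPKM (0.11). The order of these genes is that of build GRCr8.

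By distance in log2(FPKM + 1) over the 2 libraries, the genes most like Oxt were LOC100911372 (404 and 611 FPKM, distance 0.17), Eno1 (449.7 and 604 FPKM) and Rpl4 (432 and 573 FPKM). Those most like Avp were Cntn1 (258 and 239 FPKM), Ghitm (250.0 and 238 FPKM) and Cck, each at a distance of 0.02. The nearest genes to Oxtr were Dnah2, Pla2g5 and C4bpb, and to Avpr1a Hydin, Ttc28 and Rcor2, all within 0.02. The nearest genes of Oxt were thus farther from it than those of the other 3 genes. With 2 libraries, this likeness describes a pair of levels and no shared pattern.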

How the data were processed

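Hypothalamic RNA of prepubertal and pubertal female rats was analysed, 1 library column per stage. The deposited values are FPKM per transcript, which the authors obtained from Cuffdiff 2.1.1 after alignment by TopHat and assembly by Scripture and Cufflinks 2.1.1. The submitters' processing notes name build Rnor_5.0 and the methods an Rnor_6.0 annotation. How the 3 rats of a stage were combined is not stated. The deposited comparison table also holds the authors' fold changes, p-values and q-values, which were not used, and transcript lengths. The lncRNA tables were not used here.

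FPKM of 26324 mRNA transcripts was summed per gene. Members, lists and tests were chosen with earlier results of these data known. Named were the 4 members, the genes of the short lists, of the signalling and desensitisation lists those of largest difference or level, precursors ranking above or next to Oxt or Avp, and the 3 genes nearest to each member. The osmosensing genes, Gnaq, Kiss1, Rln3, Qrfp, the pituitary genes, Prok2 and Calm3 were named after their values were seen. So were the arcuate and ventromedial markers and the markers shared with the precursor list. A few genes that the rule would name are not reported here by name. Listed symbols that matched no gene of the table were left out of the counts. The pseudocount was 1. With 1 library per stage no test was made. FPKM times (length - fragment length + 1) of genes with 1 transcript of 400 to 6000 nt was fitted with a common step, with a fragment length of 258 nt (prepubertal) and 252 nt (pubertal). Of 2266 and 2452 values below 12 fragments, 93.8% and 92.6% were whole within 0.05. The fit was tested on simulated data. Intervals are exact Poisson for levels and exact conditional for ratios. Motifs were sought in the 250 bases ahead of RefSeq starts (GRCr8). Alternatives were a pseudocount of 0.1 or 5, scaling to equal medians, upper quartiles or Actb, the highest transcript, the comparison table and a minimum of 1 FPKM. Computations ran in Python 3.11.15 (pandas 2.3.3, numpy 2.4.6, matplotlib 3.10.9, scipy 1.17.1).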

Additional observations from a re-analysis of the deposited data

How the results depend on the processing

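Scaling the libraries to equal Actb, by a factor of 1.32 on the pubertal library, moved the median log2 ratio of all genes from -0.01 to 0.30. It put Oxt at 1.14, which is past 2-fold and makes 1 of the 4 genes higher at puberty, against 0.975% of all mRNA genes under that scaling and 0.307% without it. Avp was at 0.32. Relative to that median, the other 2 receptors of the family had a median of -0.37 and the osmosensing genes of -0.0889. With a pseudocount of 0.1 the former was -0.38, and among genes of at least 1 FPKM the latter was -0.0907. Equal medians gave 0.79 for Oxt and equal upper quartiles 0.74. Less the median of genes of like length, an alternative added after the data were seen, Oxt was at 0.65, and a 1.5-fold rule, also added, called 1 of the 4 genes. Without a pseudocount the log2 of Avpr1a over Oxtr was 1.60 before puberty and 1.79 at puberty, in place of 0.91 and 0.97. Of all 161 values under an alternative, 149 moved by less than their counting interval, by less than 0.1 on the log2 scale for lists and ratios, or by less than 1.5 times for counts, and 12 moved more. Oxt was above 0 under each of these alternatives. The 149 include values that could not move. Each member has 1 transcript and the same FPKM in the comparison table, so those alternatives leave it unchanged. They also include Oxtr and Avpr1a under equal Actb, whose log2 ratios turned positive (0.08 and 0.26) within wide counting intervals. Oxtr, with 15 and 10 fragments, is limited by depth. No paired analysis was possible because each stage has 1 library, and no library could be left out.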
